A study of Mus musculus with 9 samples.

Results

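Small nucleolar RNA (snoRNA) genes were examined in RNA-seq of mouse brain. Members were chosen by name and level: genes named Snord or Snora with a number, whose level in RPM (RPKM times the length in kilobases, which is reads scaled to the depth of the library) reached 0.4 in 3 or more samples of 9. Of 127 genes with such a name among 38621 genes, 50 were selected on these levels, 28 of the C/D box class (Snord) and 22 of the H/ACA box class (Snora). No member passed through the samples of 1 group alone. Of the 50 members, 27 were at or above 0.4 RPM in all 9 samples, and 5 passed through 2 of the 3 groups (Snord15a, Snord33, Snord89, and Snora61 with no ICH mouse at 0.4, and Snord78 with no sham mouse). Just inside the threshold were Snord78 and Snora24, whose value in the last sample needed to pass was 0.416 and 0.462 RPM. Just outside were Snord68 (0.383) and Snord104 (0.382). The 77 genes with such a name that did not pass had means between 0.00424 and 0.316 RPM and at most 16 reads in a sample.

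All mice were of the C57BL/6 strain, and the study's methods describe them as male, with no age stated. Sham mice were injected in the brain with saline. ICH mice received 30 μl of their own blood, a model of intracerebral hemorrhage that has no ruptured vessel. Feb mice were gavaged with 50 mg/kg febuxostat, a xanthine oxidase inhibitor used against gout, once a day for 5 days before the same blood injection. Each group had 3 mice, so the feb group differed from the sham group both in the blood and in the drug, and no group received the drug alone. Total RNA of brain tissue was depleted of ribosomal RNA and made into stranded libraries of size-selected fragments. C/D members are 64 to 238 bases long and H/ACA members 127 to 205. The part of size selection in the levels of short and long members was not tested.

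SnoRNAs guide chemical modification of ribosomal RNA in the nucleolus. C/D box snoRNAs pair with a target and direct fibrillarin to methylate the ribose, whereas H/ACA box snoRNAs direct dyskerin to turn uridine into pseudouridine, and a few, such as U3, U14, U22, and U17, act in cleavage of the ribosomal RNA precursor. Most mammalian snoRNAs are cut out of introns of host genes, many of which code for ribosomal proteins, nucleolar proteins, or translation factors, or are non-coding genes such as Gas5 and the Snhg genes.

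The boxes that give the classes their names were looked for in the GENCODE M21 transcripts (GRCm38), where the 50 members were matched by name and length. The C box letters TGATGA stood within the first 20 bases of 20 of 28 C/D members (71.4%), and the D box letters CTGA within the last 20 bases of all 28. Only the RNA strand was searched. Both stood together in 0.0454% of 2202 miRNA-type transcripts. The letters ACA stood in the last 6 bases of 19 of 22 H/ACA members (86.4%), against 11.9% of miRNA-type transcripts. Shown next are those of some of the members with the largest or the opposite changes described in the following paragraphs, printed 5′ to 3′ with these letters in capitals.
Snord15a, chr7:99482785-99482932, minus strand: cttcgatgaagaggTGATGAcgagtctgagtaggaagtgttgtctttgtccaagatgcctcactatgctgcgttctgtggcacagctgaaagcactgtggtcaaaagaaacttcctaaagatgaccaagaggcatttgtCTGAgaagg
Snord82, chr1:86356261-86356330, minus strand: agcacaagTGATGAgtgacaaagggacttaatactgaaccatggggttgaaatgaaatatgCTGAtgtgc
Snord89, chr1:39548745-39548854, minus strand: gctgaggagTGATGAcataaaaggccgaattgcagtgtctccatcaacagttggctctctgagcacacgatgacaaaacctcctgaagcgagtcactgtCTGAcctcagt
Snord57, chr2:130278016-130278087, plus strand: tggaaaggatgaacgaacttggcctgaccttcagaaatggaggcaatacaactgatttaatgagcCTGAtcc
Snord42b, chr11:78183056-78183124, minus strand: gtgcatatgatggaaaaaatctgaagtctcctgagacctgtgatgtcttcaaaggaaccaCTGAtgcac
Snord4a, chr11:78181686-78181756, minus strand: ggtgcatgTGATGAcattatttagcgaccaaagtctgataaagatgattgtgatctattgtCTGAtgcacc
Snord17, chr2:144265979-144266216, minus strand: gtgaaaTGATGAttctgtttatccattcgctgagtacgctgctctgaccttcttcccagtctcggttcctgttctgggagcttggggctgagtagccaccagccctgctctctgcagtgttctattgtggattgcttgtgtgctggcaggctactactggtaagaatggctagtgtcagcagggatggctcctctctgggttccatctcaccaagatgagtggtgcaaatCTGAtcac
Snord22, chr19:8725866-8725991, plus strand: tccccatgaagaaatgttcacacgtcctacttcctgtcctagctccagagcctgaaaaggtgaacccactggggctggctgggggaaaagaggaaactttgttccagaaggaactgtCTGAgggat
Snord2, chr16:23108953-23109021, plus strand: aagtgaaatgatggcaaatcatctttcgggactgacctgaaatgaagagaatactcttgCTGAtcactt
Snora34, chr15:98519716-98519853, minus strand: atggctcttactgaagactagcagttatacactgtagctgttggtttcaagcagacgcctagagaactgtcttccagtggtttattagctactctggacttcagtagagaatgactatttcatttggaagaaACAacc
Snord57, Snord42b, Snord22, and Snord2 do not hold the letters TGATGA near the start, so only the D box is in capitals there. Snord42b and Snord4a lie in the same gene, Rpl23a, with a sequence identity of 53.5%.

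The 9 libraries held 23065757 to 29538009 counted reads, and 0.4 RPM stood for 10 to 12 reads. Members therefore rested on few reads, between 1 and 384 in a sample, and the values of low members carry a large counting error. The positions of 49 members were the same as in GENCODE M21, with Snora43 as the exception. Counting of reads that fit several places, and the use of strand in counting, are not given in the sources used here. Of the 50 members, 27 lay at least in part in an exon of a longer gene on the same strand and 24 lay there whole, so their reads cannot be told apart from those of that gene. Another 23 lay outside such exons, where a longer gene is one that spans over 300 bases. Snora43 and Snora34 are among the 23, although same-strand exons of Snhg7 and Mir1291 overlap them. No exon of any other gene on either strand overlapped 19 members. The closest other small RNA gene was at least 90% alike for 12 members, among them Snora73a and Snora73b (96.6%), and the values of these are uncertain for that reason too. In bulk tissue, fewer cells of a type and less RNA per cell cannot be told apart.

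Ranked per length, Snora74a, an H/ACA box snoRNA of the Snhg4 gene, had the highest mean level over the 9 samples at 46.0 RPKM. Next were Snord2 of the translation factor gene Eif4a2 with 32.7 RPKM and Snora7a of the ribosomal protein gene Rpl32 with 32.5 RPKM. Snord107, which lies in the imprinted Prader-Willi region of chromosome 7, had 26.8 RPKM. Snord22, the U22 RNA needed to mature 18S ribosomal RNA, had 25.1 RPKM. In RPM, which favors long genes, Snord17 held 15.4% of the C/D class and the top 6 members held 50.4%. These were Snord17, Snord22, Snord2, Snord15b, Snord107, and Snord35a. In the H/ACA class Snora74a held 24.0%, and it held 64.9% together with Snora7a, Snora81, Snora21, Snora65, and Snora30. The Snord116 genes of the same imprinted region, known as abundant in neurons, had 0 to 6 reads per sample in each of 6 genes, and so did Snord118 (U8), which acts on the 28S precursor. Reads that fit several Snord116 genes may have been left out or split, since their counting is not given. The low counts therefore do not measure the level of that family.

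Both classes had a lower summed level in the ICH mice than in the sham mice. The 28 C/D members summed to 32.5, 32.9, and 34.4 RPM in sham. The sums were 30.3, 25.0, and 23.7 in ICH and 30.7, 40.5, and 30.6 in feb. The highest ICH sum was below the lowest sham sum, and feb replicate 2 had the highest sum of the 9 samples. The means were 33.3 ± 0.962 in sham, 26.3 ± 3.47 in ICH, and 33.9 ± 5.68 in feb (SD, n = 3), a ratio of 0.791 for ICH to sham.

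The 22 H/ACA members summed to 42.0, 37.0, and 44.9 RPM in sham, 35.2, 29.3, and 28.7 in ICH, and 35.2, 52.7, and 33.6 in feb. Again no ICH sum reached the lowest sham sum, with means of 41.3 ± 4.03 and 31.1 ± 3.60 (SD, n = 3) and a ratio of 0.752. The feb mean was 40.5 ± 10.6, of which feb replicates 1 and 3 lay at 35.2 and 33.6, no more than ICH replicate 1 at 35.2. Without feb replicate 2 the log2 ratio of feb to ICH was 0.15 in place of 0.38 for the H/ACA class and 0.22 in place of 0.37 for the C/D class. Without Snord17, the log2 ratio of ICH to sham in the C/D class was -0.26 in place of -0.34. Over the C/D members that no exon of another gene overlaps it was -0.49. The H/ACA class went the other way in that check, with -0.34 over such members in place of -0.41, and -0.35 without Snora74a.

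**Figure D1:**
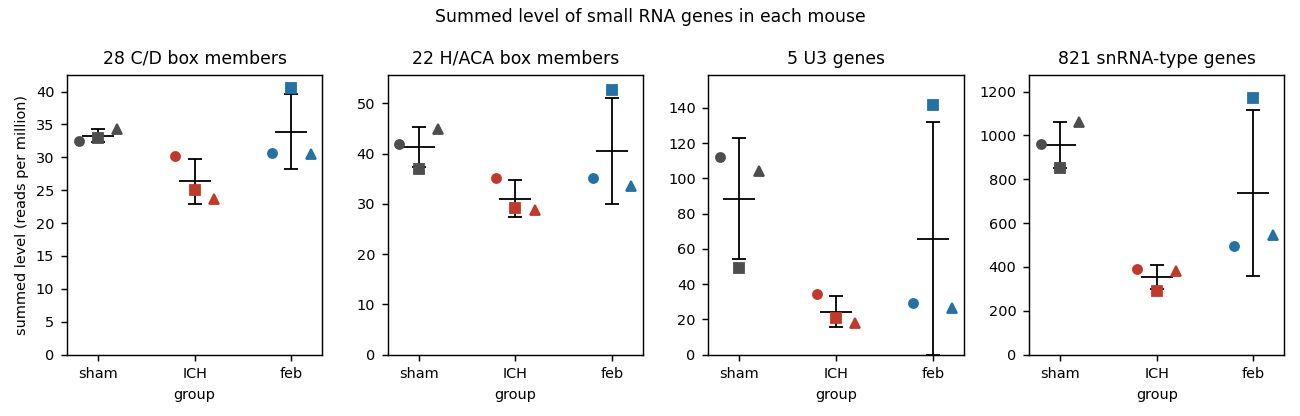
Summed level (RPM, vertical axis from 0) of the 28 C/D box members, the 22 H/ACA box members, 5 U3 genes, and 821 snRNA-type genes by group. Points are mice (circle, square, and triangle for replicates 1, 2, and 3), bars the mean and SD of 3 mice, and the 3 ICH mice lie below the 3 sham mice in each panel. In each, feb replicate 2 is the highest feb mouse.

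Other small RNA genes moved with the snoRNAs across the mice. The 5 U3 genes, which are C/D box RNAs outside the naming rule, summed to 112, 49.4, and 104 RPM in sham, 34.2, 20.8, and 17.8 in ICH, and 29.2, 142, and 26.3 in feb. The 821 snRNA-type genes, most of them copies of spliceosomal RNA, summed to 959, 851, and 1060, 389.7, 292, and 382, and 495, 1172, and 545 RPM in the same order of groups. For Rn7sk, the 7SK RNA that holds a transcription factor inactive, the values were 2096, 1961, and 2169, 1684, 1500, and 1622, and 1754, 2372, and 1595. In all 3 sets every ICH mouse was below every sham mouse, and feb replicate 2 was the highest of the feb mice. The snRNA-type sum of the ICH mice averaged 0.371 of that of the sham mice, a larger difference than in either snoRNA class. The 869 snoRNA-type genes that are no members behaved alike, with 382, 378, and 409 in sham, 364, 288, and 305 in ICH, and 319.8, 499, and 368 in feb. Differences between libraries in how much short RNA they kept and differences between the mice cannot be told apart with these samples, and the part of the former in the snoRNA values was not tested.

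Between ICH and sham, 35 of 50 members had a negative and 15 a positive log2 fold change, with a median log2 fold change of -0.38 where the median of the 29025 genes tested was 0.08. By the criteria of the study for differentially expressed genes (DEGs), an unadjusted p under 0.05 and a fold change over 2, 6 members were lower and 1 was higher. Of all genes tested, 1.07% were lower by these criteria and 1.46% higher. Among the 22538 genes that reach the level used to choose members, 0.572% were lower. These genes share only that lower limit with the members, whose median was 0.871 RPM, and are not matched to them in level. The groups did not overlap for 19 members that were lower and for 4 that were higher, against 6.22% of genes lower and 13.2% higher among all tested, and 6.71% lower among genes at the level of the rule. Members of both classes took part: 12 of 28 C/D and 7 of 22 H/ACA members were lower without overlap. The 4 higher ones were all of the C/D class. After adjustment over all genes no member passed 0.05 by limma, 4 members were higher and 15 lower at an unadjusted p under 0.05 (against 7.88% and 4.42% of all genes tested), and the lowest adjusted p was 0.291. Among the 23 members outside exons of longer genes, 10 were lower and 1 higher without overlap. Among the 27 members at or above 0.4 RPM in all 9 samples, these numbers were 13 and 1. Among the 19 members that no exon of another gene overlaps, 8 were lower and 0 higher. The 7 calls became 4 without sham replicate 1 or sham replicate 3, 3 without ICH replicate 2, and 11 without sham replicate 2. Only 2 of the 27 members at or above 0.4 RPM in all 9 samples met the DEG criteria.

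**Figure D2:**
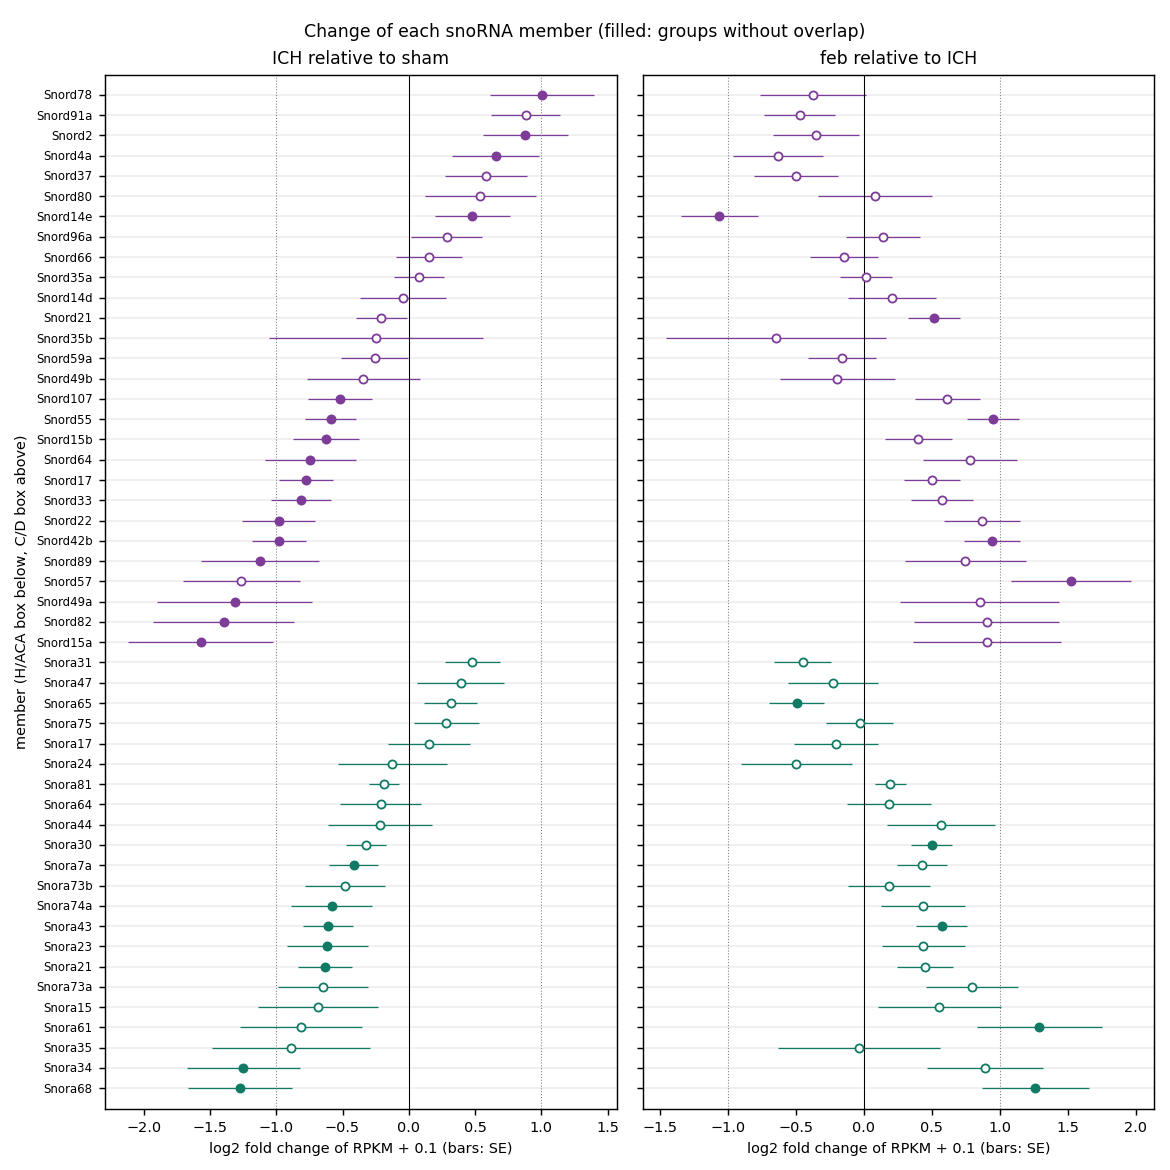
Log2 fold change of RPKM + 0.1 with its SE for each of the 50 members, for ICH relative to sham and feb relative to ICH, with H/ACA members below and C/D members above, ordered within a class by the first contrast. Filled points are members whose groups did not overlap, 23 in the first contrast and 10 in the second, and dotted lines mark a fold of 2, and the ICH mice enter both panels.

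Snord15a, a methylation guide, of the ribosomal protein gene Rps3, had 0.609, 0.344, and 0.640 RPM in sham and 0.245, 0.152, and 0.115 in ICH. The groups did not overlap, and the difference had the largest size among members (log2 fold change -1.57, SE 0.55, adjusted p = 0.362 by limma). Since no ICH mouse reached the threshold of the rule for Snord15a, Snord33, Snord89, or Snora61, nor any sham mouse for Snord78, the choice of members favored these directions. Snord15a rested on 6, 4, and 3 reads in the ICH mice, near the limit of counting. Its neighbor Snord15b in the same gene had more reads, with 2.07, 2.30, and 2.42 in sham and 1.31, 1.44, and 1.64 in ICH, and again no overlap (log2 fold change -0.62).

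Snord82, in an intron of the gene of nucleolin, an abundant nucleolar protein, had 1.08, 0.727, and 0.854 RPM in sham and 0.449, 0.228, and 0.344 in ICH. The ICH values were all lower (log2 fold change -1.40, SE 0.53, adjusted p = 0.382 by limma). Snord89, which lies in a non-coding gene on chromosome 1, had 0.711, 0.574, and 0.996 in sham and 0.368, 0.266, and 0.382 in ICH. Here too the groups were apart (log2 fold change -1.12, SE 0.44, adjusted p = 0.388 by limma). The calls of Snord15a, Snord82, and Snord89 each ended when sham replicate 1 or sham replicate 3 was left out. So did that of Snord15a without ICH replicate 3, that of Snord82 without ICH replicate 2 or 3, and that of Snord89 without ICH replicate 1 or 2 or at a pseudocount of 1.

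Among H/ACA members, Snora68 had 1.63, 1.19, and 1.57 RPM in sham and 0.654, 0.684, and 0.458 in ICH. No ICH mouse reached the sham mice (log2 fold change -1.27, SE 0.39, adjusted p = 0.347 by limma), and the call held in each alternative fit. Another small RNA gene, Gm22661, is 93.2% alike in sequence. Snora34, in an intron of the chromatin gene Kansl2, had 1.59, 1.34, and 1.92 in sham and 0.817, 0.494, and 0.725 in ICH. It was likewise without overlap (log2 fold change -1.25, SE 0.43, adjusted p = 0.357 by limma), and the call ended without sham replicate 3 or ICH replicate 2. Both are guides of pseudouridylation by class.

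Snord57, a methylation guide hosted by Nop56, itself the gene of a C/D box core protein, had 1.02, 0.880, and 1.03 RPM in sham and 0.899, 0.266, and 0.267 in ICH. ICH replicate 1 overlapped the sham mice, and the call (log2 fold change -1.26, SE 0.44, adjusted p = 0.364 by limma) ended without ICH replicate 2 or 3. Snord42b and Snord22, chosen here after their values were seen or for their level, were lower without overlap at folds under 2. Snord42b had 2.10, 1.15, and 1.42 in sham and 0.654, 0.798, and 0.840 in ICH, with the lowest adjusted p of the members (log2 fold change -0.98, SE 0.20, adjusted p = 0.291 by limma).

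The members of the highest level mostly had the same direction. Snord17, of the sorting nexin gene Snx5, had 5.62, 5.74, and 6.40 RPM in sham and 4.33, 2.85, and 3.32 in ICH. Snord22 had 3.83, 3.67, and 3.95 in sham and 2.70, 1.33, and 1.99 in ICH. Both were without overlap, with log2 fold changes of -0.77 (SE 0.20) and -0.98 (SE 0.28). Snora21, of the ribosomal protein gene Rpl23, had 3.69, 3.56, and 4.27 in sham and 2.86, 2.36, and 2.21 in ICH, and Snora7a had 4.84, 4.71, and 5.16 and 4.29, 3.80, and 3.02. Neither overlapped, with smaller log2 fold changes of -0.63 and -0.42. Snora74a was also lower without overlap (-0.58, SE 0.31). Snora81, Snora65, Snora30, and Snord35a overlapped between the groups, with log2 fold changes from -0.32 to 0.32, whereas Snord107 did not (-0.52).

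**Figure D3:**
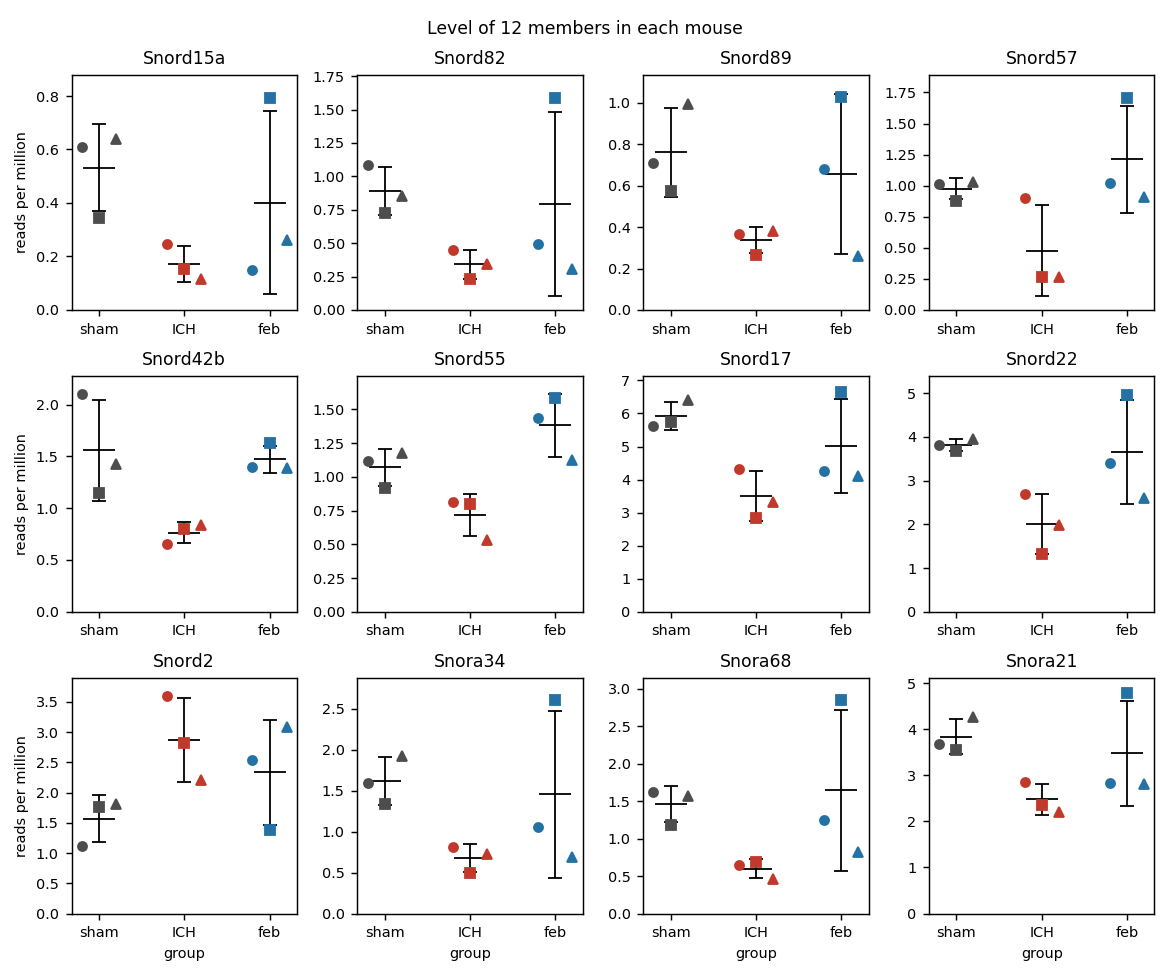
Level in RPM (vertical axes from 0, each with its own scale) of 12 members in the 9 mice, with the mean and SD of 3 mice per group. In 10 of the 12 panels the 3 ICH mice lie below the 3 sham mice, in that of Snord57 ICH replicate 1 overlaps the sham mice, and in that of Snord2 the ICH mice lie above them.

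The opposite direction was seen for Snord78, Snord2, Snord4a, and Snord14e, which were higher in ICH without overlap. Snord2 had 1.12, 1.76, and 1.81 RPM in sham and 3.59, 2.81, and 2.21 in ICH. All ICH mice were above the sham mice, at a fold under 2 (log2 fold change 0.88, SE 0.32, adjusted p = 0.373 by limma). Snord78, one of the many snoRNAs of the growth-arrest gene Gas5, had 8, 9, and 3 reads in sham and 10, 11, and 13 in ICH. It met the DEG criteria (log2 fold change 1.0, SE 0.39, adjusted p = 0.386 by limma), and the call ended with a pseudocount of 1, on the scale of RPM, with equal medians, with quantile normalization, with voom, and without sham replicate 3 or any 1 of the ICH mice. Snord4a had 0.643, 0.689, and 0.498 and 0.735, 1.29, and 0.916 RPM, and Snord14e, a copy of U14, had 0.508, 0.459, and 0.427 and 0.572, 0.570, and 0.840. Their log2 fold changes were 0.65 (SE 0.33) and 0.48 (SE 0.28). With the values scaled to equal medians, 2 members were higher and 20 lower without overlap, against 6.78% and 10.1% of all genes tested.

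Snora73a and Snora73b, the U17 RNAs that act in 18S maturation, overlapped between the groups, with log2 fold changes of -0.65 and -0.48 (SE 0.34 and 0.30). Snord33 and Snord35a, both within Rpl13a and known from work on oxidative stress, went apart. Snord33 had 0.474, 0.536, and 0.498 RPM in sham and 0.368, 0.266, and 0.229 in ICH, without overlap (-0.81). Snord35a had 1.46, 1.57, and 1.85 and 1.88, 1.86, and 1.41, which overlapped (0.08, with a negative sign under equal medians). Snora35, which lies in the serotonin receptor gene Htr2c and is known from brain, had 0.406, 0.689, and 0.462 in sham and 0.531, 0.304, and 0.115 in ICH, with overlap (log2 fold change -0.89, SE 0.60).

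A longer gene on the same strand spanned 48 members, 37 such genes in all, and 14 members lay in genes of ribosomal proteins. None of the 37 hosts met the DEG criteria in any of the 3 contrasts. Between ICH and sham 3 hosts were higher and 3 lower without overlap, against 13.2% and 6.22% of all genes tested. Between feb and ICH 8 hosts were higher and 2 lower, against 7.04% and 10.1%. Rpl23a, host of Snord42b and Snord4a, was among the lower, with 170.4, 138, and 173 RPKM in sham and 129.96, 131, and 127 in ICH (log2 fold change -0.30), and so was Atp5b (-0.35). Between ICH and sham their log2 fold changes ran from -0.35 to 0.22 with a median of 0.01, and 31 of the 48 members were lower relative to sham than their host was. Rps3, host of Snord15a, had a log2 fold change of 0.01, Kansl2, host of Snora34, of 0.19, and Nop56 of 0.05. Ncl, host of Snord82, was at -0.33 and Snhg1, host of Snord22, at -0.29. The level of a member per length was above that of its host for 9 of 48 members, including Snora74a (17.7 times Snhg4) and Snord22 (8.96 times Snhg1), and the median ratio was 0.308. Reads of unspliced or overlapping host RNA in the members were not told apart from mature snoRNA.

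**Figure D4:**
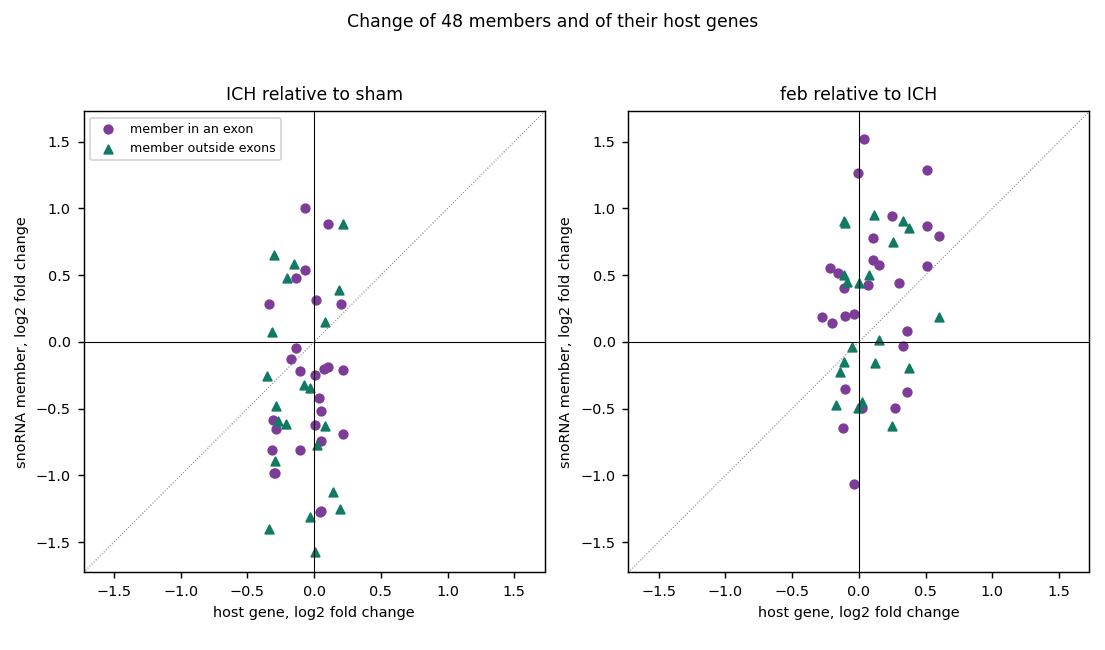
Log2 fold change of 48 members (vertical axis) against that of their host gene (horizontal axis) on equal scales, with circles for members in an exon of a longer gene and triangles for the others, and the dotted line where both are equal. Between ICH and sham the hosts stay within -0.35 and 0.22, while members run from -1.57 to 1.0. The SE runs from 0.06 to 0.27 for hosts and from 0.11 to 0.81 for members, so the wider range of members includes counting error.

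Members of 1 host were compared with each other. Of the 37 hosts, 11 held a pair of members, and the log2 ratio of the pair was compared between groups in each (level in RPM + 0.04). In 4 of 11 pairs the ratios of ICH and sham mice did not overlap. The ratio of Snord42b to Snord4a, both in Rpl23a, was 1.65, 0.70, and 1.44 in sham and -0.16, -0.67, and -0.12 in ICH on the log2 scale. It was thus positive in each sham mouse and negative in each ICH mouse, with a difference of -1.58. In the feb mice it was 0.79, 2.07, and 0.72, all above the ICH mice. The ratio of Snora75 to Snord82, both in Ncl, was -0.19, 0.26, and -0.12 in sham and 1.27, 1.64, and 1.80 in ICH (difference 1.59). For Snora81 to Snord2 in Eif4a2 the difference was -1.05, and for Snord33 to Snord35a in Rpl13a it was -0.82. Each of these 4 had an exact permutation p of 0.1 (two-sided), the smallest that 3 against 3 mice can give, and 0.275 after Benjamini-Hochberg adjustment over the 11 pairs. In 3 of the 4, the pair differs in exon overlap: Snord42b lies in part, and Snora75 and Snord33 lie whole, in an exon, whereas Snord4a, Snord82, and Snord35a lie outside exons, so these ratios can mix host RNA with snoRNA. Between feb and ICH, 4 pairs did not overlap either, at the same p.

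**Figure D5:**
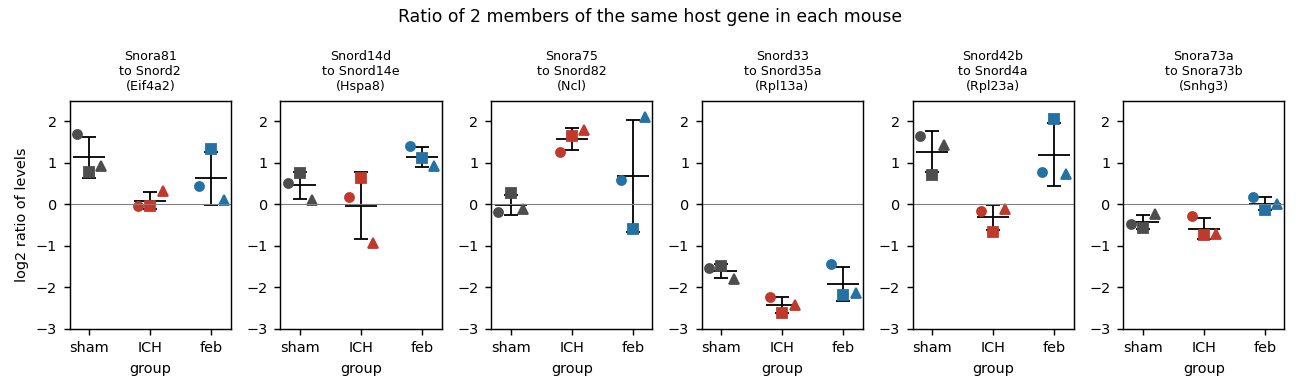
Log2 ratio of the levels of 2 members in the same host gene, by group, for the 6 of 11 pairs whose ratio did not overlap between ICH and sham or between feb and ICH. Points are mice and bars the mean and SD of 3 mice, with the grey line at equal levels. The pair of Rpl23a lies above the line in sham and feb mice and below it in ICH mice.

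Between feb and ICH, 33 of 50 members had a positive and 17 a negative log2 fold change, with a median log2 fold change of 0.41 against -0.01 over all genes tested. The ICH mice are shared with the previous contrast, so the values of both contrasts are not independent. By the DEG criteria 3 members were higher and 1 lower, where 1.38% of all genes tested were higher and 1.05% lower, and 0.595% were higher among genes at the level of the rule. The groups did not overlap for 8 members that were higher and 2 that were lower, against 7.04% and 10.1% of all genes tested and 7.3% higher among genes at the level of the rule. Of the 8, 4 were C/D and 4 H/ACA members. Of the 23 members outside exons of longer genes, none met the DEG criteria, 4 were higher at an unadjusted p under 0.05 by limma, and 3 were higher without overlap. Of the 19 members that no exon of another gene overlaps, 2 were higher without overlap. No member passed adjustment by limma, the lowest adjusted p being 0.219, and 14 members were higher and 2 lower at an unadjusted p under 0.05, against 4.9% and 6.16% of all genes tested.

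Snord57 had 1.02, 1.70, and 0.910 RPM in the feb mice, all above the ICH values given before (log2 fold change 1.52, SE 0.44, adjusted p = 0.309 by limma). Snord42b had 1.40, 1.62, and 1.39, a close set that lay above every ICH mouse and within the range of the sham mice (log2 fold change 0.94, SE 0.20, adjusted p = 0.234 by limma). Of its length, 31.9% lies in an exon of its host Rpl23a, so reads of the host cannot be told apart there. Rpl23a was also higher in feb than in ICH without overlap (log2 fold change 0.25). Snord55, a methylation guide, had 1.12, 0.918, and 1.17 in sham, 0.817, 0.798, and 0.535 in ICH, and 1.44, 1.58, and 1.13 in feb. The ICH mice were below both other groups, and Snord55 had the lowest adjusted p of this contrast (log2 fold change 0.95, SE 0.19, adjusted p = 0.219 by limma). Snord42b and Snord55 did not reach a fold of 2 and were named after their values were seen.

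Snora68 had 1.25, 2.85, and 0.824 RPM in feb, again above every ICH mouse (log2 fold change 1.26, SE 0.39, adjusted p = 0.332 by limma). Snora61, whole in an exon of the non-coding gene Snhg12, had 0.286, 0.228, and 0.191 in ICH and 0.378, 1.11, and 0.477 in feb (log2 fold change 1.29, SE 0.46, adjusted p = 0.378 by limma). Both depended on feb replicate 2, which had the highest value of the 9 samples for each. Without it their log2 fold changes were 0.77 and 0.84 and the calls ended (that of Snora61 also without ICH replicate 3 and at a pseudocount of 1), and 1 member in place of 3 was called higher. Without feb replicate 3 the number was 10, without ICH replicate 1 it was 7, and without feb replicate 1 it was 5. Without feb replicate 2, 9 members were higher and 2 lower without overlap, against 14.2% and 15.4% of all genes tested with 2 feb mice.

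Snord14e went the other way, with 0.189, 0.436, and 0.347 RPM in feb, below every ICH mouse (log2 fold change -1.06, SE 0.28, adjusted p = 0.291 by limma). It lies whole in an exon of the chaperone gene Hspa8, whose mean RPKM was 508 against 5.37 for Snord14e. The call ended with a pseudocount of 1, on the scale of RPM, and without ICH replicate 3 or feb replicate 1. Snora65 of Rpl12 was also lower without overlap, with 2.49, 3.08, and 2.29 in ICH and 1.93, 1.70, and 1.91 in feb (-0.49, SE 0.20). Higher without overlap beside those named were Snord21, Snora30, and Snora43, with log2 fold changes of 0.51, 0.50, and 0.57.

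Several members that were low in ICH were uneven in the feb mice. Snord82 had 0.491, 1.58, and 0.303 RPM in feb, and Snord15a had 0.151, 0.792, and 0.260. Snora34 had 1.06, 2.61, and 0.694 and Snord89 0.680, 1.03, and 0.260. In each of these 4, feb replicate 2 was the highest of the 9 samples, and feb replicate 3 lay within or near the ICH range. Over the 50 members, feb replicate 2 was the highest of the 9 samples for 20, and ICH replicate 3 was the lowest for 14. The same mouse had the highest U3, snRNA-type, and Rn7sk values of the feb group.

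Between feb and sham no member met the DEG criteria by limma, where 1.59% of all genes tested were higher and 0.613% lower. At an unadjusted p under 0.05 the number was also 0, where 5.63% of all genes were higher and 2.9% lower, and the lowest adjusted p was 0.615. The median log2 fold change of the members was -0.02, with 24 positive and 26 negative values. Only Snord96a, in the ribosomal scaffold gene Rack1, did not overlap, with 1.05, 1.07, and 0.747 RPM in sham and 1.59, 1.11, and 1.17 in feb, against 7.78% of genes higher and 4.9% lower without overlap. With feb replicate 2 left out, 6 members were higher and 10 lower without overlap, against 20.8% and 12.2% of all genes tested, and Snord15a and Snord82 met the DEG criteria as lower.

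Genes of the proteins that work with snoRNAs were compared in the same way. Of the C/D core proteins (Fbl, which is fibrillarin, Nop56, Nop58, and Nhp2l1) and the H/ACA core proteins (Dkc1, which is dyskerin, Nhp2, Nop10, and Gar1), 0 of 4 and 0 of 4 met the DEG criteria in any contrast. Fbl had 4.13, 3.69, and 4.0 RPKM in sham and 3.87, 4.11, and 3.76 in ICH, and Dkc1 had 6.93, 6.34, and 6.31 and 6.94, 7.23, and 7.09. From sham to ICH, log2 fold changes lay between -0.01 and 0.05 for the C/D proteins and between -0.25 and 0.16 for the H/ACA proteins. None of 11 assembly factors and none of 17 genes of ribosomal RNA synthesis and processing met the DEG criteria either, and the shares of all genes that met them were given before. Without overlap, 3 of the 11 were higher and 1 lower in ICH than in sham, and 2 of the 17 were higher and 3 lower. Between feb and ICH these numbers were 2 higher and 1 lower, and 3 higher and 2 lower. Of all genes tested, 13.2% were higher and 6.22% lower without overlap between ICH and sham, and 7.04% and 10.1% between feb and ICH. Znhit6, an assembly factor of C/D box particles, had 11.7, 7.98, and 10.6 RPKM in sham, 7.73, 5.81, and 6.77 in ICH, and 9.18, 14.4, and 10.5 in feb. The ICH mice were below both other groups (log2 fold changes -0.56 for ICH against sham and 0.72 for feb against ICH, adjusted p = 0.367 and 0.299 by limma). Utp3, of the ribosomal RNA processing list, was likewise lowest in the ICH mice without overlap (-0.45 and 0.40). The reverse was seen in the same lists for the assembly factor Naf1 (0.26 and -0.38) and for Nop2 (0.16 and -0.17). These were highest in the ICH mice without overlap in both contrasts. All of these genes were named after their values were seen. Of 20 non-coding host genes, 0 were called, but 8 were higher in feb than in ICH without overlap, against 7.04% of all genes tested. Snhg12 and Gas5 were among the 8. Snhg12 had 5.07, 5.42, and 4.49 RPKM in ICH and 7.34, 6.14, and 8.05 in feb (log2 fold change 0.51), in the direction of its members Snora61 and Snora44. Both members lie whole in an exon of Snhg12, so their reads cannot be told apart from those of the host.

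Of 17 other non-coding RNA genes (the Scarna and U3 genes, Rmrp, Rpph1, and Terc), 2 met the DEG criteria as lower in ICH than in sham. These were the U3 genes Rnu3b4 and Rnu3b3. Rnu3b4 had 349, 151, and 324 RPKM in sham, 47.7, 49.6, and 46.7 in ICH, and 80.1, 455, and 73.3 in feb. The ICH mice were close together and far below the sham mice (log2 fold change -2.42, SE 0.64, adjusted p = 0.334 by limma), whereas feb replicate 2 was above the sham mice and the other feb mice were nearer to the ICH mice. Rnu3b4 was also called higher in feb than in ICH (1.53). The highest of the list, Rpph1 and Rmrp, the RNAs of RNase P and RNase MRP, were lower in ICH than in sham without overlap at log2 fold changes of -0.26 and -0.30. U3 genes are near copies, so reads may be split between them. Scarna3b, a guide RNA of Cajal bodies, where spliceosomal RNA is modified, went the other way. It had 1.22, 1.38, and 1.28 RPKM in sham, 2.06, 2.19, and 3.30 in ICH, and 3.80, 3.42, and 4.05 in feb, with no overlap between any of the groups, and met the DEG criteria between feb and sham (log2 fold change 1.47, adjusted p = 0.0910 by limma).

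Tissue markers also differed between the groups. Neuron, astrocyte, oligodendrocyte, and microglia markers (4 genes each) were present in every sample, with 0 called in any contrast. All 4 microglia markers had positive log2 fold changes between ICH and sham (median 0.40, 1 without overlap) and negative ones between feb and ICH (median -0.68, 3 without overlap). Their summed RPKM was 21.3 to 27.96 in sham, 25.5 to 39.8 in ICH, and 19.6 to 23.8 in feb. All 4 astrocyte markers had negative values between feb and ICH (median -0.51, 3 without overlap), with sums of 297 to 375 in sham, 326 to 846 in ICH, and 264 to 384 in feb. Oligodendrocyte markers were negative in 4 of 4 between ICH and sham (median -0.36) and between feb and sham (median -0.59), and all overlapped. All 5 choroid plexus markers were lower in feb than in ICH by the DEG criteria, and their summed RPKM was 29.8 to 87.1 in feb against 454 to 963 in ICH and 362 to 1027 in sham. Of 5 red blood cell markers, 4 were lower in feb than in ICH. The part of tissue composition in the snoRNA values was not tested.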

How the data were processed

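Total RNA of brain was sequenced in 9 mice, 3 each in the sham, ICH, and feb groups, and samples were grouped by their labels. The authors trimmed reads with Trimmomatic (version 0.36), merged reads of the same molecular identifier, aligned them to GRCm38 with STRA software, counted reads on exons with featureCounts (Subread 1.5.1), and deposited RPKM per gene and mouse. They tested with edgeR (3.12.1), which was not used here because the deposited unit is RPKM. The annotation release, strand setting, and treatment of reads with several positions are not given in the sources used here.

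RPKM multiplied by length gave whole reads for 100% of values (tolerance 0.01 reads). Levels are RPKM times length in kilobases (RPM). Contrasts were fitted with limma (3.58.1, in R 4.3.3, eBayes with trend) on log2(RPKM + 0.1), with all 9 samples in the fit and no block, over 29025 genes that had 0.1 RPKM or more in 3 samples or more. Fold changes on this scale understate those of genes with an RPKM near 0.1. Members are short, so few reads gave a higher RPKM, such as 0.774 from 3 reads of Snord15a in ICH replicate 3. Their fold changes are therefore reduced little and carry their counting error. The DEG criteria were an unadjusted p under 0.05 with a fold change over 2, and p was adjusted by Benjamini-Hochberg over all these genes. Limma was first checked on simulated data. Hosts are the shortest gene over 300 bases on the same strand that spans a member in the deposited positions, a choice made after the data were seen, as was the 7SK list. Sequences are those of GENCODE M21 transcripts, compared with edlib (1.3.9.post1). Other steps used Python 3.11.15 with scipy 1.17.1, pandas 2.3.3, and matplotlib 3.10.9.

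The members and gene lists were chosen with earlier results of these data known. Genes were named by rule: members past the DEG criteria without overlap, the 6 of highest level in each class, those next to the threshold, related genes past the criteria or of high level, and hosts. Snord42b, Snord55, and other members outside the rule were named after their values were seen. Alternatives were the pseudocount, filter, scaling, samples in the fit, trend, replicate block, voom on recovered reads, each sample left out, and subsets of members. Nothing says whether the labelled mice were kept or handled apart, so p-values measure the spread between these samples. Some host genes and sequences are not reported here.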

Additional observations from a re-analysis of the deposited data

How the results depend on the processing

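The number of members called by limma between ICH and sham was 7 and stayed between 5 and 9 under both other pseudocounts, both other filters, the RPM scale, equal medians, quantile normalization, 2 groups in the fit, no trend, and voom. It was 19 at p without the fold, 2 among members at or above 0.4 RPM in all 9 samples, and 3 among members without exon overlap. With each sample left out it was 3 to 11, the lowest without ICH replicate 2 and 4 without sham replicate 1 or 3. Between feb and ICH the number was 4, with 2 at a pseudocount of 1 and 16 at p without the fold. It was 1 among members at or above 0.4 RPM in all 9 samples and 0 among those without exon overlap. With each sample left out it was 2 to 11. Between feb and sham it was 0 throughout, and 0 to 2 with each sample left out. No called member changed sign in any of these fits. The C/D log2 ratio of ICH to sham, -0.34, was -0.45 with equal medians.

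No pairing of mice by the replicate numbers of the labels was seen. Correlations of same-numbered deviations ran from -0.127 to 0.0194, and those of other numbers from -0.121 to 0.166. These values cannot exclude that same-numbered mice were handled together. With the replicate block, 5 members were called between ICH and sham, 4 between feb and ICH, and 0 between feb and sham. The overlap counts, the limit to members outside exons, and the fits of these counts without feb replicate 2 were chosen after seeing the data. With 10 to 12 reads at the threshold, differences of low members were not detectable at this depth unless large.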
